A study of Mus musculus with 20 samples.

Results

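The livers compared here are the control groups of a pair of experiments on Pklr, the gene of the pyruvate kinase of liver and red cells. They are 10 of the 20 livers of the study: 5 from mice given an AAV8 vector that expresses GFP, the control for Pklr overexpression, and 5 from mice given an AAV8 vector with a hairpin RNA against firefly luciferase (shLUC), the control for Pklr knockdown. The members were taken by their labels, GFP replicates 1 to 5 and shLUC replicates 1 to 5, and the read counts of the 2 deposited tables, 1 per experiment, were joined on the gene identifier. The remaining 10 livers carried the Pklr hairpin (shPKLR, 5 livers) or the Pklr coding sequence (PKLR, 5 livers).

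All mice were male C57BL/6J. They received their vector by vein at 8 weeks of age and were kept to an age of 25 weeks on the diet labelled HF/HS, product D12266B of Research Diets. AAV8 is a viral vector that delivers genes mostly to hepatocytes. The thyroxine binding globulin promoter, which is active in hepatocytes, is stated for the Pklr vectors, and the labels do not say which promoter drove GFP or the luciferase hairpin. Both groups thus share strain, sex, viral serotype and diet. The vector and the experiment change together between them, and their parts in any difference below cannot be told apart. P-values measure the spread between these livers only.

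De novo lipogenesis is the making of fatty acids from acetyl-CoA and malonyl-CoA. Its genes respond in liver to insulin through SREBP-1c and to sugar through ChREBP, and pyruvate kinase is itself a target of ChREBP. Fatty acids are then esterified to triglyceride and stored in droplets whose surface holds perilipins and CIDE proteins. Gluconeogenesis runs the other way, from lactate and amino acids to glucose, and its genes rise in fasting when FoxO1 is active. The matrix of the liver, with its fibrillar collagens, is made mainly by stellate cells and fibroblasts, and it grows in chronic steatohepatitis.

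The control libraries held 31759565 to 45413803 counts each. The share of counts at mitochondrially encoded genes was 9.45% to 10.9% with shLUC and 7.79% to 9.23% with GFP, without overlap. On the first principal component of log2 CPM, which held 43.0% of the variance, the shLUC livers lay between -37.0 and -19.6 and the GFP livers between -2.32 and 61.8, with GFP liver 1 the farthest out. The tissue label was checked on 14 hepatocyte markers, such as Alb, the gene of serum albumin. Of these, 13 were tested and 1, Tf, had no match in the joined table, and none of the 13 was called by edgeR (4 had an unadjusted p under 0.05, and DESeq2 called 1, limma-voom 0). On these markers 2 of 5 GFP livers scored below every shLUC liver. Their summed level was 110238 to 115883 CPM with shLUC and 104314 to 142077 CPM with GFP (CPM, the counts scaled to a common library size by TMM).

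Of 15726 genes tested, 1241 (7.89%) differed between the GFP and shLUC livers at an adjusted p of 0.05 by edgeR, 674 higher with GFP (4.29%) and 567 lower (3.61%). A total of 501 of them differed at least 2-fold. Higher calls made up 54.3% of all calls, and 41.1% (585 higher, 840 lower) when offsets for GC content and transcript length were added, which also re-centre each library. The median log2 fold change over all genes tested was 0.03, and 54.2% of them were on the higher side. In 8.19% of the genes the groups did not overlap, with every GFP liver above every shLUC liver in 3.94% and below in 4.25%. These shares, and those of the calls, are the background for the counts of group members below. All fold changes are GFP relative to shLUC, and values of the 5 livers of a group are given in the order of their replicate numbers. Leaving out a single liver moved the higher calls to between 363 (without shLUC replicate 3) and 1006 (without GFP replicate 5), and the lower calls to between 302 (without GFP replicate 4) and 689 (without GFP replicate 5).

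Neither control vector targets Pklr (ENSMUSG00000041237; chr3:89136142-89146784, plus strand, GRCm38), whose level is the baseline of both experiments. It was at 381, 542, 358, 497 and 644 CPM with shLUC and 65.6, 104, 137, 147 and 145 CPM with GFP. Every GFP liver lay below every shLUC liver, and the shLUC mean was 4.05 times the GFP mean. The difference was called (log2 fold change -2.02 ± 0.23 SE, adjusted p 0.00127 by edgeR), and an exact two-sided permutation test on CPM gave p = 0.00794, the smallest that 5 against 5 livers allow. The log2 fold change stayed between -2.11 and -1.87 whichever liver was left out. In the plot of 12 gene levels, Pklr stands beside 11 other members of the groups described next.

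**Figure D1:**
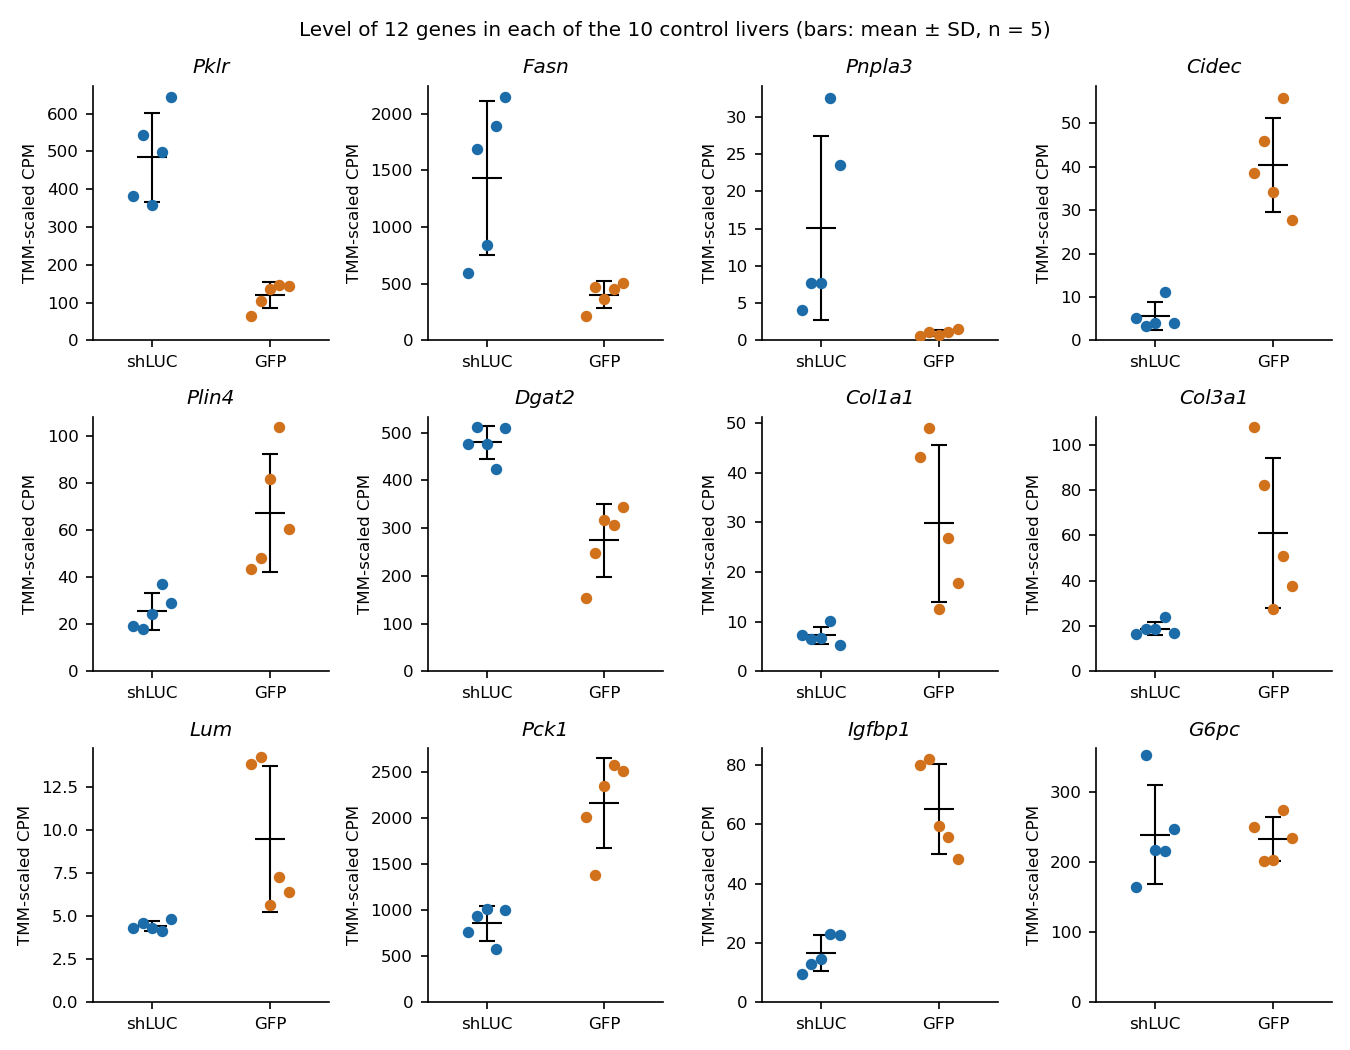
Level of 12 genes in each of the 10 control livers, in TMM-scaled CPM on a linear axis from 0, with shLUC livers in blue and GFP livers in orange. Points are livers and bars are the mean ± SD (n = 5); for Pklr, Fasn, Pnpla3 and Dgat2 every GFP liver lies below every shLUC liver, for Cidec, Plin4, Col1a1, Col3a1, Lum, Pck1 and Igfbp1 every GFP liver lies above, and for G6pc the groups overlap.

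Fatty acid synthesis was the group with the largest share of calls among the 4 described in depth. Of its 22 members, all tested, 13 fell with GFP and none rose by edgeR, against 3.61% lower calls over all genes. The median log2 fold change was -0.92, and 21 of 22 members were on the lower side. Pklr is itself 1 of the 13. In 12 members, against 4.25% of all genes, every GFP liver lay below every shLUC liver. The cytosolic route from citrate to palmitate fell at each step measured, beginning with export of citrate by Slc25a1 and its cleavage by Acly.

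Fasn (ENSMUSG00000025153; chr11:120805846-120824547, minus strand), the fatty acid synthase, was at 598, 1685, 845, 1896 and 2148 CPM with shLUC and 216, 470.1, 369, 456 and 508 CPM with GFP. All GFP livers were below all shLUC livers, and among the shLUC livers 1 and 3 were the lowest. The shLUC mean was 3.55 times the GFP mean (log2 fold change -1.83 ± 0.36 SE, adjusted p 0.0145 by edgeR). Acly, which makes cytosolic acetyl-CoA from citrate, was at 286, 721, 310.0, 631 and 834 CPM with shLUC and 115, 191, 183, 121 and 175 CPM with GFP. The shLUC livers ranked alike in both genes at the low end, livers 1 and 3 being lowest, and no GFP liver reached them (log2 fold change -1.83 ± 0.31 SE, adjusted p 0.00736 by edgeR). Acaca, the acetyl-CoA carboxylase of the cytosol, was at 131, 216, 124, 236 and 294 CPM with shLUC and 75.3, 86.9, 83.7, 97.3 and 94.7 CPM with GFP, again without overlap (log2 fold change -1.19 ± 0.22 SE, adjusted p 0.00851 by edgeR). Its mitochondrial counterpart Acacb, whose malonyl-CoA restrains fatty acid oxidation, had a log2 fold change of -1.34 ± 0.25 (SE). Acss2, which makes acetyl-CoA from acetate, had one of -1.96 ± 0.28, and Me1, the malic enzyme that supplies NADPH, one of -1.55 ± 0.19. The calls of these 6 genes held in all 20 alternative fits.

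Pnpla3 and Thrsp fell furthest. Pnpla3 (ENSMUSG00000041653; chr15:84167837-84187236, plus strand), a lipid droplet protein linked to fatty liver, was at 4.11, 7.66, 7.69, 32.6 and 23.6 CPM with shLUC and 0.569, 1.11, 0.730, 1.16 and 1.53 CPM with GFP. The shLUC mean was 14.8 times the GFP mean, with shLUC livers 4 and 5 well above the others (log2 fold change -3.89 ± 0.62 SE, adjusted p 0.00622 by edgeR). Thrsp, also called Spot 14, a lipogenic regulator, was at 309, 465, 365, 701 and 519 CPM with shLUC and 15.9, 49.4, 64.8, 70.6 and 137 CPM with GFP. GFP liver 1 was the lowest and GFP liver 5 the highest of its group, still below every shLUC liver (log2 fold change -2.81 ± 0.48 SE, adjusted p 0.00905 by edgeR). Agpat2, which acylates lysophosphatidic acid, fell by less (log2 fold change -0.54), and its call was lost without GFP replicate 2 (-0.63 to -0.47 over the 20 alternatives). Elovl6, the elongase that turns palmitate to stearate, was called (log2 fold change -1.44 ± 0.35 SE, adjusted p 0.0326 by edgeR) with overlapping groups, and its call was lost in 7 of the 10 fits that left out a single liver (-1.64 to -1.21 over the alternatives). Acsl5, an acyl-CoA synthetase, and Slc25a1, named after their values were seen, had log2 fold changes of -0.49 and -0.43. Without GFP replicate 4 both calls were lost, and that of Slc25a1 also without shLUC replicates 1, 2 or 4 (-0.59 to -0.44 and -0.50 to -0.36 over the alternatives). Both were also lost with the replicate block, and that of Acsl5 in a single fit of all 20 livers.

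The desaturases and the lipogenic transcription factors were not among the calls. Scd1, the delta-9 desaturase and an abundant transcript here, was at 7316, 16299, 8410.4, 17726 and 22817 CPM with shLUC and 5574, 4554, 11027, 12996 and 14558 CPM with GFP. Its groups overlapped widely, with a log2 fold change of -0.58 ± 0.39 (adjusted p 0.410 by edgeR). None of the 4 desaturase genes measured (Scd1, Scd2, Fads1, Fads2) was called by edgeR, DESeq2 or limma-voom, and 0 had an unadjusted p under 0.05. Their median was -0.20, in a grouping made after the values were seen. Srebf1, which encodes SREBP-1, had a log2 fold change of -0.31 ± 0.31 and an adjusted p of 0.588 by edgeR. Mlxipl, which encodes ChREBP, had one of -0.36 ± 0.23 and an adjusted p of 0.361 by edgeR. For both, GFP liver 1 was the lowest of the 10 livers, at 70.1 and 149 CPM. Gpam, the mitochondrial acyltransferase that starts glycerolipid synthesis, named after its values were seen, stood near the threshold (log2 fold change -1.10 ± 0.32 SE, adjusted p 0.0592 by edgeR). A p that misses the threshold does not show that these genes were alike in the groups.

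The promoters of Fasn and Pnpla3 are shown because these are the central enzyme of the group and its furthest-fallen member. Each is the 250 bases before the RefSeq start site (GRCm38.p6), written 5′ to 3′ on the gene's strand. Capitals mark the letters CCAAT or, on the other strand, ATTGG, the box bound by NF-Y, which acts with SREBP at lipogenic promoters. The motif was chosen after the windows were seen. The Fasn window is chr11:120824548-120824797 (minus strand) and holds 3 matches, beginning 90, 62 and 59 bases before the start, the last 2 sharing the letters in their middle. The Pnpla3 window is chr15:84167566-84167815 (plus strand) and holds 1 match, 99 bases before the start.
Fasn promoter: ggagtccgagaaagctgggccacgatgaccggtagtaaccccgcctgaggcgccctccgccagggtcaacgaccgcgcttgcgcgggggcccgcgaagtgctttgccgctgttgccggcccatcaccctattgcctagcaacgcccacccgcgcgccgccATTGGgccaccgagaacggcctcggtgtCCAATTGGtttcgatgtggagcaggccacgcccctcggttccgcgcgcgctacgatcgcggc
Pnpla3 promoter: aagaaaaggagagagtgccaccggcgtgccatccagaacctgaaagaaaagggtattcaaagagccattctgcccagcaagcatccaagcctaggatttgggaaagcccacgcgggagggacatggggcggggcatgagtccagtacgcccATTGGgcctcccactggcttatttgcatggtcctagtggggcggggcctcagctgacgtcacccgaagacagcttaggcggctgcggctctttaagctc
The letters were found in 33.8% of all 32851 promoter windows of this length. Counted per gene, where a gene can have several windows, 13 of the 19 lipogenic genes with a window held them in at least 1, and 37.5% of all 27025 genes did. These letters describe the windows and are not evidence of binding.

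Genes of triglyceride storage split. Of 35 members of the triglyceride and lipid droplet group, 34 were tested, 8 rose and 2 fell with GFP by edgeR, and the median log2 fold change was 0.02. The called share was 29.4%, against 7.89% over all genes. The risers were Cidec, Plin4, Plin5, Fitm2, Hsd17b13, Pnpla2, Gpat4 and Lpl, and the fallers Dgat2 and Lipc. Of 4 perilipin genes 2 rose, and of 3 CIDE genes 1, in groupings made after the values were seen. In 7 members every GFP liver lay above every shLUC liver, and in 3 below (3.94% and 4.25% of all genes). Mogat2 did not pass the count filter and stood at or below 0.449 CPM in every control liver.

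Cidec (ENSMUSG00000030278; chr6:113424634-113435760), also called Fsp27, a protein that joins lipid droplets and lets them grow, was at 5.12, 3.398, 4.05, 11.2 and 4.01 CPM with shLUC and 38.4, 45.9, 34.2, 55.9 and 27.7 CPM with GFP. Even the highest shLUC liver, replicate 4, lay under the lowest GFP liver, and the GFP mean was 7.27 times the shLUC mean (log2 fold change 2.87 ± 0.33 SE, adjusted p 0.00180 by edgeR). Plin4, a perilipin of adipocytes and of fat-laden hepatocytes, was at 19.2, 17.8, 24.4, 37.3 and 28.9 CPM with shLUC and 43.3, 48.3, 81.6, 104 and 60.4 CPM with GFP. All GFP livers lay above all shLUC livers (log2 fold change 1.40 ± 0.27 SE, adjusted p 0.0136 by edgeR). Lpl, the lipoprotein lipase, which adult hepatocytes make little of, was at 15.2, 14.97, 12.1, 10.9 and 11.6 CPM with shLUC and 66.7, 60.1, 33.2, 68.3 and 23.7 CPM with GFP. Its GFP mean was 3.89 times the shLUC mean, with GFP livers 3 and 5 nearest the shLUC range (log2 fold change 1.96 ± 0.28 SE, adjusted p 0.00370 by edgeR).

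Smaller rises were seen for genes of droplet budding and turnover. Fitm2, which helps droplets leave the endoplasmic reticulum, had a log2 fold change of 0.69 ± 0.10 (SE). Hsd17b13, a droplet protein of hepatocytes, had one of 0.57 ± 0.11. Pnpla2, the adipose triglyceride lipase, had one of 0.45 ± 0.09, and Gpat4, the acyltransferase of the endoplasmic reticulum, one of 0.66 ± 0.13. In all 4 genes every GFP liver lay above every shLUC liver. Plin5, which ties droplets to mitochondria, was at 54.96, 39.6, 45.8, 43.6 and 44.5 CPM with shLUC and 65.1, 71.9, 57.6, 71.6 and 45.6 CPM with GFP. GFP liver 5 was within the shLUC range (log2 fold change 0.45 ± 0.13 SE, adjusted p 0.0483 by edgeR), and the call was lost in 8 of 10 fits without a single liver (0.38 to 0.54 over the alternatives). Plin2, the main perilipin of hepatocytes, was at 783, 534, 497, 609.7 and 549 CPM with shLUC and 1195, 932, 815, 725 and 712 CPM with GFP. It missed the threshold narrowly (log2 fold change 0.56 ± 0.16 SE, adjusted p 0.0519 by edgeR), GFP livers 4 and 5 lying within the shLUC range.

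Dgat2, the acyltransferase of the last step of triglyceride synthesis, was at 477, 511, 476, 425 and 510.2 CPM with shLUC and 155, 248, 318, 306 and 345 CPM with GFP. The shLUC livers lay close together and every GFP liver was below them, GFP liver 1 furthest (log2 fold change -0.81 ± 0.18 SE, adjusted p 0.0172 by edgeR). Lipc, the hepatic lipase, was called by a narrow margin (log2 fold change -0.45 ± 0.13 SE, adjusted p 0.0483 by edgeR), and its call was lost in 7 of 10 fits without a single liver (-0.53 to -0.37 over the alternatives). That call was also lost with limma-voom, with the replicate block and in a single fit of all 20 livers. Cidea, a relative of Cidec, was at 2.56, 0.866, 0.611, 3.83 and 0.903 CPM with shLUC and 0.0474, 0.0776, 0.159, 0.443 and 1.53 CPM with GFP. It pointed the other way from Cidec without a call (log2 fold change -1.95 ± 0.83 SE, adjusted p 0.183 by edgeR), and GFP liver 5 stood far above the other GFP livers. No call was made for G0s2, the inhibitor of the adipose lipase (log2 fold change 0.05 ± 0.10), for Cd36, a fatty acid transporter (-0.29 ± 0.19), or for Mogat1, a monoacylglycerol acyltransferase (-0.56 ± 0.31). When all 20 livers entered a single fit, 3 members were called higher instead of 8, and the calls of Plin4, Plin5, Fitm2, Pnpla2 and Hsd17b13 were lost. Of 6 adipocyte markers, 2 were tested. The defining ones were at or near 0: Adipoq and Plin1 were below the count filter, with at most 0.997 CPM with shLUC and 0.0317 CPM with GFP.

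**Figure D2:**
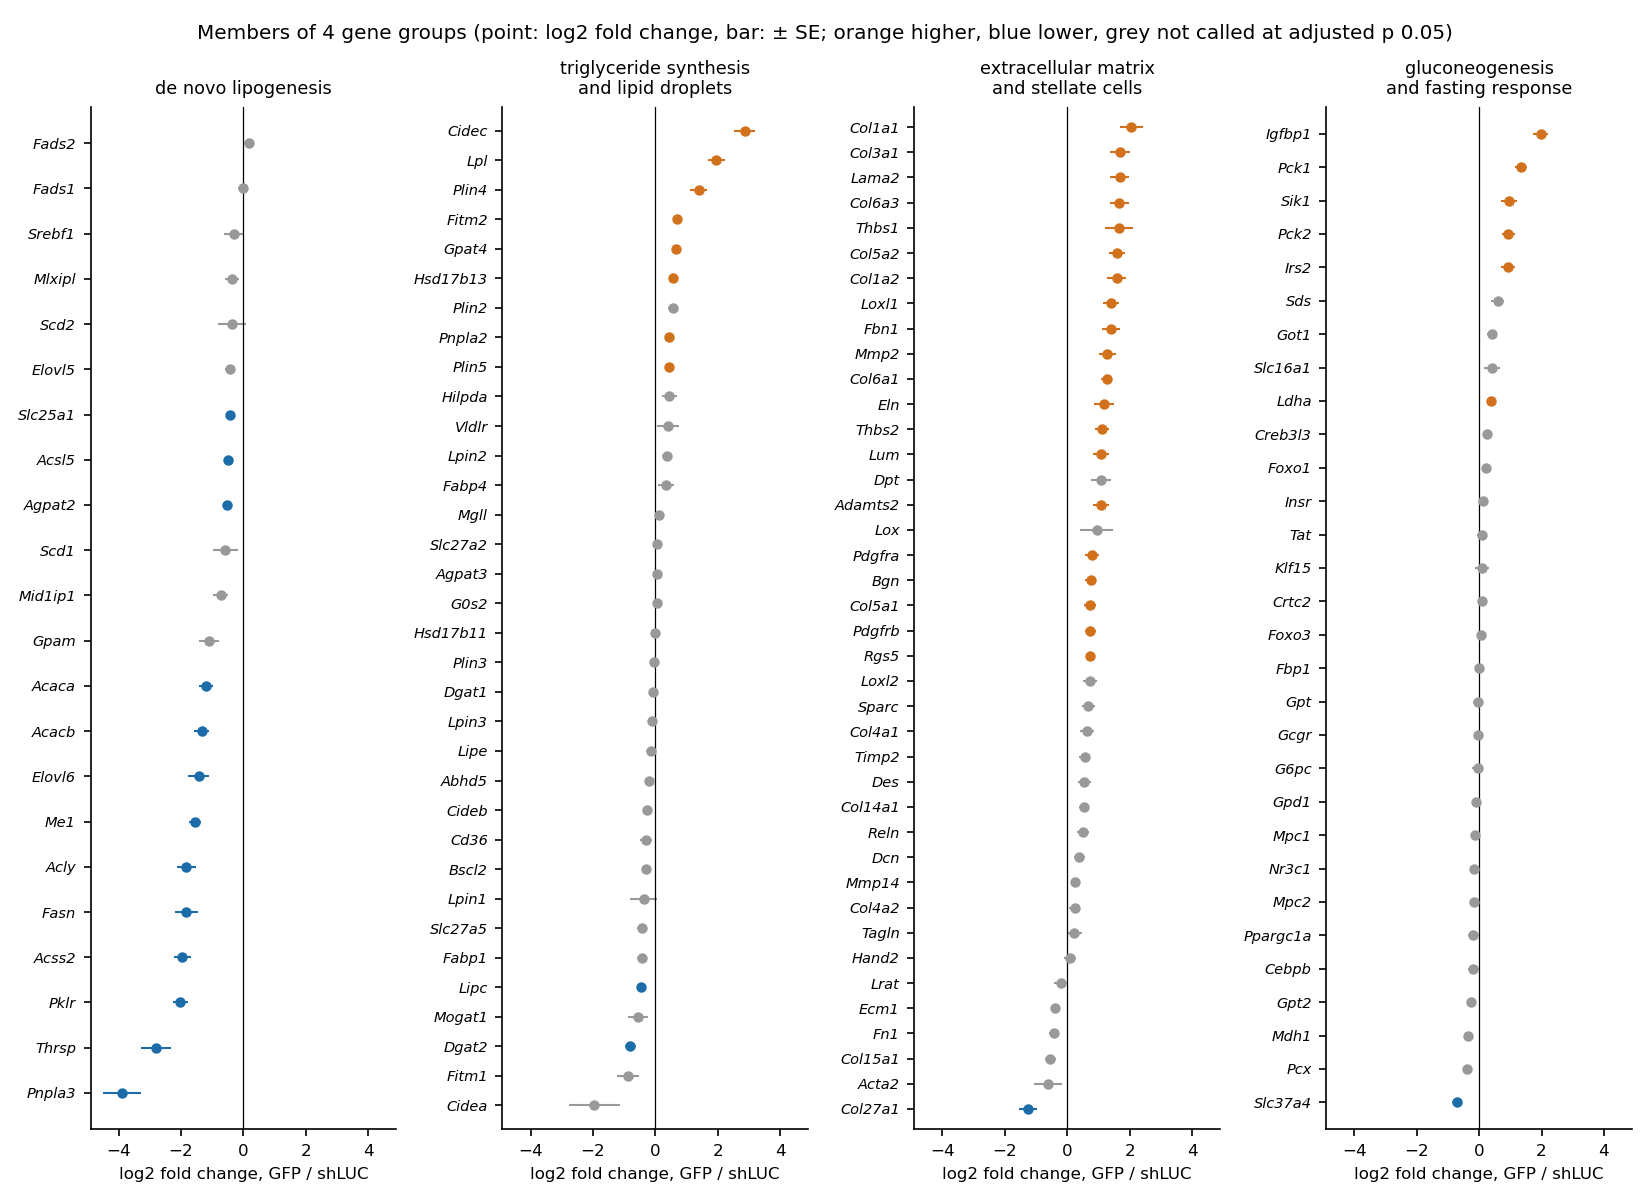
Log2 fold change (GFP / shLUC) of the tested members of 4 gene groups (1 gluconeogenesis member is not shown), with bars of ± SE, higher calls in orange, lower calls in blue and uncalled members in grey. Lipogenic members lie almost all to the left of 0, matrix members mostly to the right, and the other 2 groups on both sides.

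Most matrix genes were higher with GFP, though their summed level was not. Of 41 members of the matrix and stellate cell group, 40 were tested, 20 rose and 1 fell by edgeR, against 4.29% higher calls over all genes. The median log2 fold change was 0.74, with 34 of 40 members on the higher side (54.2% of all genes). In 13 members, against 3.94% of all genes, every GFP liver lay above every shLUC liver. The summed level of the 41 members was 1775 to 2464 CPM with shLUC and 1819 to 2176 CPM with GFP, inside the shLUC range. Of 6 fibrillar collagen genes 5 rose and 1, Col27a1, fell, and of 12 collagen genes in all 7 rose and 1 fell, both groupings made after the values were seen. In bulk liver, more or fewer cells of a type and more or less RNA per cell cannot be told apart.

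Col1a1 (ENSMUSG00000001506; chr11:94936224-94953042), a chain of type I collagen, was at 7.41, 6.604, 6.79, 10.1 and 5.27 CPM with shLUC and 43.1, 49.1, 12.5, 26.9 and 17.7 CPM with GFP. GFP livers 1 and 2 were highest and GFP livers 3 and 5 lowest, the latter still above every shLUC liver (log2 fold change 2.05 ± 0.36 SE, adjusted p 0.00945 by edgeR). Col3a1, of type III collagen, was at 16.4, 18.8, 18.5, 23.9 and 17.1 CPM with shLUC and 108, 82.1, 27.6, 51.1 and 37.5 CPM with GFP. Its order among the GFP livers was much the same, and the GFP mean was 3.23 times the shLUC mean (log2 fold change 1.69 ± 0.33 SE, adjusted p 0.0146 by edgeR). The other chain of type I collagen, Col1a2, had a log2 fold change of 1.58 ± 0.30 (SE). Type V and type VI chains rose too, Col5a2 by 1.59 ± 0.25, Col6a1 by 1.26 ± 0.18 and Col6a3 by 1.67 ± 0.30 on the log2 scale. Among proteins that assemble the matrix, Lama2 (a laminin chain) had 1.68 ± 0.30, Fbn1 (fibrillin) 1.40 ± 0.29, Loxl1 (a collagen and elastin crosslinker) 1.42 ± 0.26 and Thbs2 (a thrombospondin) 1.12 ± 0.22. Each of these 8 had every GFP liver above every shLUC liver.

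Lum, which encodes the proteoglycan lumican that orders collagen fibrils, was at 4.32, 4.62, 4.31, 4.14 and 4.87 CPM with shLUC and 13.9, 14.3, 5.68, 7.26 and 6.398 CPM with GFP. The shLUC livers were nearly equal, and the GFP livers fell into a high pair, livers 1 and 2, and 3 others just above the shLUC range (log2 fold change 1.09 ± 0.25 SE, adjusted p 0.0243 by edgeR). The call was lost without shLUC replicate 1, 2, 3 or 4 (0.90 to 1.23 over the alternatives). Mmp2, a gelatinase, also named after its values were seen, had a log2 fold change of 1.29 ± 0.28. Other calls named after their values were seen were less stable to the loss of a liver: Col5a1 (0.74), Pdgfra (0.80), Pdgfrb (0.74), Thbs1 (1.65), Eln (1.18), Adamts2 (1.09) and Bgn (0.75) each lost theirs in 5 or more of the 10 fits without a single liver. Col27a1 was the member that fell, at 49.3, 30.5, 57.4, 62.8 and 56.4 CPM with shLUC and 10.3, 17.8, 30.9, 18.6 and 28.9 CPM with GFP. Its groups overlapped only at GFP liver 3 and shLUC liver 2 (log2 fold change -1.27 ± 0.29 SE, adjusted p 0.0253 by edgeR), and the call was lost without shLUC replicate 3 or 4 or GFP replicate 2 or 4 (-1.44 to -1.10 over the alternatives).

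Of the 9 stellate and muscle-like cell genes in the group (Acta2, Tagln, Des, Pdgfra, Pdgfrb, Lrat, Rgs5, Reln, Hand2), 3 rose and none fell. Rgs5, a pericyte and stellate cell gene, was at 22.7, 30.2, 28.3, 24.6 and 26.2 CPM with shLUC and 48.6, 55.2, 34.7, 46.03 and 34.6 CPM with GFP. Every GFP liver was above the shLUC range (log2 fold change 0.73 ± 0.13 SE, adjusted p 0.00741 by edgeR), and the call was lost in a single fit of all 20 livers. Acta2, the smooth muscle actin of activated stellate cells, was at 2.53, 0.962, 6.47, 2.67 and 1.96 CPM with shLUC and 2.44, 2.95, 1.59, 1.22 and 1.203 CPM with GFP. The groups overlapped fully, with a log2 fold change of -0.62 ± 0.44 and an adjusted p of 0.427 by edgeR. Timp1, the inhibitor of matrix proteases, was below the count filter: it lay between 0.0322 and 0.316 CPM with shLUC and between 0.286 and 2.44 CPM with GFP.

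The matrix score of a liver, the mean log2 CPM of the 40 members less the shLUC mean, was -0.19, 0.04, 0.01, 0.15 and -0.01 in the shLUC livers and 1.03, 1.16, 0.14, 0.68 and 0.34 in the GFP livers. It was thus above every shLUC liver in 4 of 5 GFP livers, and its SD was 0.43 with GFP and 0.12 with shLUC. Beside it, the score of the 25 macrophage and Kupffer cell genes was -0.15, 0.31, -0.29, 0.09 and 0.04 with shLUC and 1.65, 1.14, -0.09, 1.11 and -0.29 with GFP, highest in GFP livers 1, 2 and 4. The part of macrophages in the matrix difference was not tested. The number of matrix members called higher was 12 without shLUC replicate 1 and 13 without GFP replicate 1, and it reached 27 without GFP replicate 3.

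Gluconeogenic and fasting genes gave a mixed picture. All 31 members were tested, 6 rose and 2 fell with GFP by edgeR, and the median log2 fold change was 0.05. The called share was 25.8%, against 7.89% over all genes. The groups did not overlap in 8 members, 4 in each direction (3.94% above and 4.25% below over all genes). The risers were Igfbp1, Pck1, Pck2, Irs2, Sik1 and Ldha, and Slc37a4 was among the fallers.

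Igfbp1 (ENSMUSG00000020429; chr11:7197782-7202546, plus strand), a secreted binder of insulin-like growth factors that insulin represses through FoxO1, was at 9.58, 12.9, 14.5, 23.05 and 22.8 CPM with shLUC and 80.02, 81.98, 59.2, 55.7 and 48.4 CPM with GFP. The lowest GFP liver was above the highest shLUC liver, and the GFP mean was 3.93 times the shLUC mean (log2 fold change 1.97 ± 0.25 SE, adjusted p 0.00244 by edgeR). Pck1 (ENSMUSG00000027513; chr2:173153048-173159273), the cytosolic PEP carboxykinase that commits oxaloacetate to glucose, was at 764, 938, 1017, 575 and 1006 CPM with shLUC and 2015, 1381, 2345, 2577 and 2513 CPM with GFP. GFP liver 2 was the lowest of its group and still above every shLUC liver (log2 fold change 1.33 ± 0.19 SE, adjusted p 0.00252 by edgeR). Pck2, the mitochondrial form, rose from a low level (log2 fold change 0.94 ± 0.21 SE, adjusted p 0.0184 by edgeR), and its call was lost without shLUC replicate 2 (0.80 to 1.04 over the alternatives).

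G6pc (ENSMUSG00000078650; chr11:101367561-101377903, plus strand), the glucose-6-phosphatase that releases glucose, was at 164, 353, 216, 215 and 247 CPM with shLUC and 250.1, 201, 203, 274 and 234 CPM with GFP. The GFP livers all lay inside the shLUC range, with a log2 fold change of -0.04 ± 0.17 and an adjusted p of 0.918 by edgeR. Its sign turned without shLUC replicate 2 (0.12), GFP replicate 2 (0.0048) or GFP replicate 3 (0.0028). Slc37a4, the transporter that feeds glucose-6-phosphate to that enzyme, was at 112, 121, 124, 125 and 135 CPM with shLUC and 42.8, 80.3, 83.8, 92.3 and 79.5 CPM with GFP. It was lower in every GFP liver, and GFP liver 1 lay far under the other GFP livers (log2 fold change -0.71 ± 0.16 SE, adjusted p 0.0229 by edgeR). Fbp1, the fructose bisphosphatase, had a log2 fold change of -0.02 ± 0.10 and Ppargc1a, a coactivator of fasting genes, one of -0.19 ± 0.18, neither called.

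Irs2, an insulin receptor substrate whose gene is a FoxO1 target, was at 11.02, 12.3, 12.2, 8.26 and 15.03 CPM with shLUC and 31.3, 30.2, 19.9, 13.5 and 16.8 CPM with GFP. GFP livers 1 and 2 were highest and GFP liver 4 within the shLUC range (log2 fold change 0.92 ± 0.24 SE, adjusted p 0.0377 by edgeR). Sik1, a kinase induced by cyclic AMP, had a log2 fold change of 0.96 ± 0.26. These calls were lost in 6 (Irs2, 0.77 to 1.06) and 7 (Sik1, 0.75 to 1.09) of the 10 fits without a single liver. Both were also lost without a filter and with offsets for GC content and length. The call of Sik1 was lost with limma-voom and the replicate block too. Ldha, the lactate dehydrogenase subunit, rose by 0.38 ± 0.09 on the log2 scale with every GFP liver above the shLUC range. Its call was lost without shLUC replicate 2 or 3 or GFP replicate 4 (0.33 to 0.41). That call was also lost without a filter, with the replicate block and in a single fit of all 20 livers. Members called higher numbered 2 without shLUC replicate 2 and 3 without shLUC replicate 3.

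The promoters of Igfbp1 and G6pc are shown because both are known FoxO1 targets and their RNA differed in behaviour here, Igfbp1 rising and G6pc overlapping. Capitals mark TGTTTTG or, on the other strand, CAAAACA, the core of the insulin response sequence that FoxO1 binds, a motif chosen after the windows were seen. The Igfbp1 window is chr11:7197537-7197786 (plus strand), with 1 match 108 bases before the start. The G6pc window is chr11:101367466-101367715 (plus strand), with 1 match 174 bases before the start. Both are the 250 bases before the RefSeq start site in GRCm38.p6.
Igfbp1 promoter: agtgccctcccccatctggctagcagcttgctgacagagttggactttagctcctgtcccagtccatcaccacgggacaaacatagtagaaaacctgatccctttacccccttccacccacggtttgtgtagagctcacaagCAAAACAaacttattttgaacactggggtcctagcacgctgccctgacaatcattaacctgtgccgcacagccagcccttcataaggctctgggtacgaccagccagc
G6pc promoter: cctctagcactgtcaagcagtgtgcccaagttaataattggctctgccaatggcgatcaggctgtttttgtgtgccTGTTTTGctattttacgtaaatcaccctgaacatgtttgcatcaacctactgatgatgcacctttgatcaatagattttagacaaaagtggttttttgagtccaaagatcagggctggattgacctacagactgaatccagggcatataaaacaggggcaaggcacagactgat
The letters were in 5.56% of all windows. Counted per gene, over all windows of a gene, 5 of the 23 genes of the group with a window held them, and 6.38% of all genes did. A match is again a description of letters.

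Sugar metabolism outside these groups was lower. Of 22 genes of carbohydrate response and glycolysis, 8 fell and 1 rose by edgeR (40.9% called, 7.89% of all genes, median -0.37). Khk, the fructokinase, was at 647, 552, 676, 781 and 683 CPM with shLUC and 210.4, 226, 349, 355 and 361 CPM with GFP (log2 fold change -1.15 ± 0.17 SE, adjusted p 0.00251 by edgeR). Tkfc, the triokinase of the same pathway, had a log2 fold change of -1.02 ± 0.14, and neither gene's groups overlapped. Tkt and Pgd of the pentose phosphate pathway, named after their values were seen, fell by 0.69 and 0.93 on the log2 scale. Txnip, a sugar-responsive regulator of glucose uptake, was the riser (log2 fold change 0.51), with a call lost in 8 of 10 fits without a single liver (0.44 to 0.63). Lower members numbered 5 without shLUC replicate 3.

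Cholesterol synthesis and uptake was lower too: 15 of 26 members fell and none rose (57.7% called, 7.89% of all genes, median -0.82). Mvd, the mevalonate diphosphate decarboxylase, was at 20.9, 36.6, 26.2, 58.1 and 35.5 CPM with shLUC and 5.001, 11.6, 6.76, 4.52 and 6.64 CPM with GFP (log2 fold change -2.36 ± 0.32 SE, adjusted p 0.00299 by edgeR). Insig1, the sterol sensor that holds SREBP in the endoplasmic reticulum, had a log2 fold change of -1.19 ± 0.20. Both had every GFP liver below every shLUC liver. Sqle, the squalene epoxidase, named after its values were seen, had -1.84, with a call lost in 9 of 10 fits without a single liver. The count of lower members was 8 without shLUC replicate 2 or GFP replicate 1 and 20 without GFP replicate 2, and in 4 of 10 such fits it moved by over 1.5 times. In fatty acid oxidation and ketogenesis, 2 of 31 genes rose and none fell, a called share of 6.45%, near the 7.89% over all genes. Cpt1a, which lets acyl-CoA into mitochondria, was at 276, 335, 267, 282 and 329.8 CPM with shLUC and 511, 495, 462, 417 and 406 CPM with GFP (log2 fold change 0.62 ± 0.10 SE, adjusted p 0.00450 by edgeR), and was not called in a single fit of all 20 livers. Acot1, an acyl-CoA thioesterase with close paralogs, was the other, with GFP liver 1 far above the rest and a call lost without shLUC replicate 2 (1.07 to 1.65 over the alternatives). Higher members numbered 4 without GFP replicate 5.

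Cell cycle genes had the largest median shift of the groups listed here. Of 27 cell cycle genes, 26 were tested, 14 rose and none fell (53.8% called, 7.89% of all genes, median 2.10). Ccnd1, the G1 cyclin, was at 4.98, 9.87, 5.41, 8.76 and 10.003 CPM with shLUC and 57.1, 42.5, 17.6, 30.8 and 12.3 CPM with GFP (log2 fold change 2.03 ± 0.41 SE, adjusted p 0.0177 by edgeR), with a call lost under the replicate block. Cdc20, which drives anaphase, was at 0.386, 0.321, 0.354, 1.48 and 0.925 CPM with shLUC and 26.95, 3.23, 6.09, 6.07 and 1.31 CPM with GFP. Its highest value by far was GFP liver 1, and GFP liver 5 overlapped the shLUC livers (log2 fold change 3.63 ± 0.84 SE, adjusted p 0.0283 by edgeR). The cell cycle score was 3.06, 1.27, 1.49, 1.56 and 0.30 in the GFP livers, against -0.33 to 0.43 with shLUC. The number of rising members was 1 without shLUC replicate 2 and 20 without GFP replicate 5, and it moved by over 1.5 times in 6 of 10 such fits. The calls of Birc5, Cdc20, Cenpf, Ckap2 and Hmmr were each lost in 2 to 6 of the 10 fits without a single liver. Each was also lost with limma-voom and with the replicate block, and each but that of Birc5 without a filter on low counts. In 17 of the 27 genes the shLUC mean was under 1 CPM.

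Interferon genes were higher: 12 of 35 rose and none fell (34.3% called, 7.89% of all genes, median 0.55). All 5 GFP livers scored above every shLUC liver. Mx1, an antiviral GTPase, was at 1.09, 1.44, 1.802, 1.54 and 1.41 CPM with shLUC and 4.65, 3.72, 3.74, 2.41 and 3.75 CPM with GFP (log2 fold change 1.33 ± 0.19 SE, adjusted p 0.00252 by edgeR). Bst2, or tetherin, had a log2 fold change of 0.67 ± 0.12. Members called higher numbered 5 without shLUC replicate 3, and 5 of 10 such fits moved the count by over 1.5 times. Among 25 macrophage and Kupffer cell genes, 5 rose and none fell (20% called, 7.89% of all genes). Higher members numbered 3 without shLUC replicate 1 and 10 without GFP replicate 5, with a move of over 1.5 times in 4 of 10 such fits. Gpnmb (ENSMUSG00000029816; chr6:49036546-49070929), a marker of lipid-laden macrophages, was at 0.140, 0.224, 0.418, 0.628 and 0.198 CPM with shLUC and 17.4, 15.7, 3.71, 7.93 and 1.48 CPM with GFP. It varied widely among the GFP livers and still cleared the shLUC range in each (log2 fold change 4.85 ± 0.75 SE, adjusted p 0.00586 by edgeR). Trem2, a lipid receptor of the same cells, had a log2 fold change of 2.29 ± 0.43. Itgax and Ccr2, named after their values were seen, had 2.23 and 1.56, and Mmp12, the macrophage elastase, 4.27. The calls of Itgax, Ccr2 and Mmp12 were lost with limma-voom. Those of Ccr2 and Mmp12 were also lost in 3 and 5 of 10 fits without a single liver. None of 8 classical macrophage and Kupffer cell genes, Adgre1 (0.74) and Cd68 (0.65) among them, was called by edgeR, DESeq2 or limma-voom, and 1 had an unadjusted p under 0.05, a grouping made after the values were seen. The summed level of the macrophage list was 366 to 573 CPM with shLUC and 305 to 1018 CPM with GFP.

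Calls for other cell types are set against 7.89% called over all genes, 4.29% higher and 3.61% lower. Of 16 endothelial genes, 3 fell and none rose (18.75% called). They were Wnt2 (-0.997), a Wnt ligand of central vein endothelium, Stab2 (-0.52), a scavenger receptor of sinusoids, and Bmp2 (-0.66), named after its values were seen. Stab2 lost its call without shLUC replicate 3, and Bmp2 lost its own in 7 of 10 such fits. All 3 calls were lost in a single fit of all 20 livers, and lower members numbered 1 without shLUC replicate 3 and 6 without shLUC replicate 1. Of 18 lymphocyte genes, 13 were tested and 2 fell (15.4% called), Ighm (-1.70) and Cd4 (-1.37). The call of Cd4 was lost without shLUC replicate 2 or GFP replicate 4. The list as a whole did not fall, with 10 of the 13 on the higher side (median 0.21). In 12 of the 18 the shLUC mean was under 1 CPM. The bile duct gene Sox9, the 1 called of 7 tested cholangiocyte genes (14.3%), rose (log2 fold change 1.04 ± 0.20 SE, adjusted p 0.00851 by edgeR). Neither edgeR, DESeq2 nor limma-voom called any of 6 tested erythroid, 2 tested neutrophil or 1 tested skeletal muscle gene, with 1, 0 and 0 at an unadjusted p under 0.05. Cela1, the 1 tested acinar marker, fell (log2 fold change -1.15 ± 0.20 SE, adjusted p 0.00667 by edgeR), while the acinar gene Cpa1 was at or under 0.0314 CPM in every control liver. Car3, listed with adipocytes and also abundant in hepatocytes, fell (-0.84), with a call lost in 6 of 10 fits without a single liver.

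**Figure D3:**
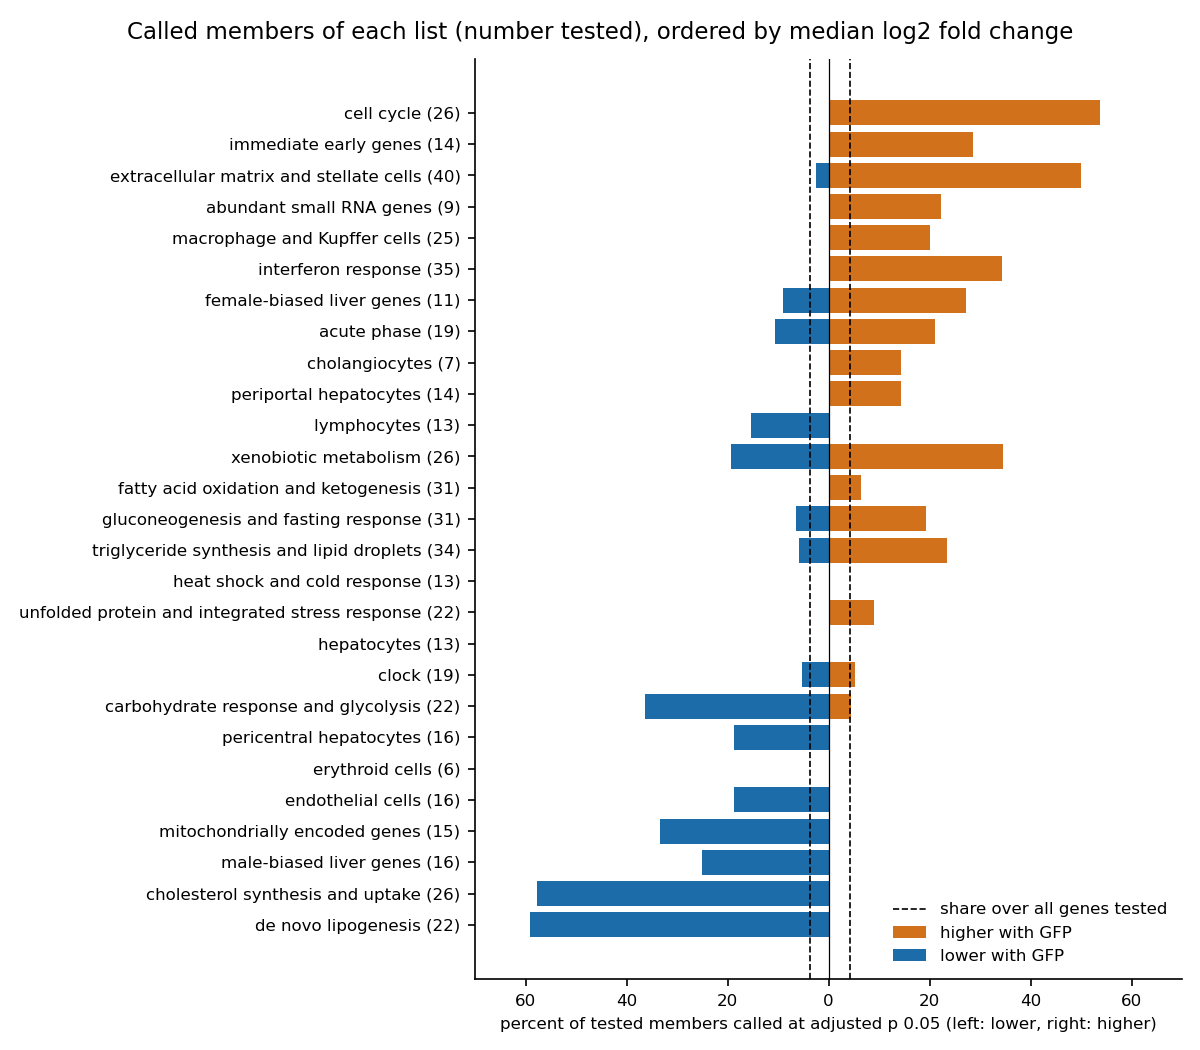
Percent of the tested members of each gene group called lower (blue, to the left) or higher (orange, to the right) with GFP by edgeR, ordered by the group's median log2 fold change, for groups with 6 or more tested members. Dashed lines mark the shares over all genes, 3.61% and 4.29%; lipogenesis and cholesterol synthesis extend furthest to the left, cell cycle and matrix to the right.

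Among markers of the zones of the lobule, which runs from portal vein to central vein, pericentral ones were lower. Of 16 genes of pericentral hepatocytes, 3 fell and none rose (18.75% called, 7.89% of all genes, median -0.38). On this list all 5 GFP livers scored below every shLUC liver. Glul, the glutamine synthetase of the innermost pericentral cells, was at 1291, 1165, 1017, 1016 and 908 CPM with shLUC and 597, 623, 608, 635 and 562 CPM with GFP (log2 fold change -0.83 ± 0.11 SE, adjusted p 0.00127 by edgeR). Nkd1, a Wnt target of the same zone, had a log2 fold change of -0.82 ± 0.11. The other was Cyp27a1 (-0.43), named after its values were seen, whose call was lost in 6 of 10 fits without a single liver. Of 14 periportal genes, 2 rose and none fell (14.3% called, 7.89% of all genes). They were Aldh1b1 (log2 fold change 1.08 ± 0.12 SE, adjusted p 9.45e-04 by edgeR) and Hsd17b13, and both calls were lost in a single fit of all 20 livers. Every GFP liver scored above every shLUC liver on the periportal list, where shLUC liver 4 stood low at -0.32.

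Sex-biased liver genes, whose level follows the pulses of growth hormone, moved in part. Of 16 male-biased genes, 4 fell and none rose (25% called, 7.89% of all genes, median -0.57): Mup3 (-1.24), Mup7 (-3.31), Mup1 (-2.65) and Cyp2d9 (-1.25). Cyp2d9, a steroid hydroxylase, was at 1638, 1316, 1115, 1095 and 973 CPM with shLUC and 249, 589.9, 459, 483 and 791 CPM with GFP, without overlap (log2 fold change -1.25 ± 0.26 SE, adjusted p 0.0144 by edgeR). Across the 21 Mup genes tested, which encode the major urinary proteins, 14 fell and none rose, with a median of -1.55. Over all genes 3.61% were called lower. The Mup paralogs share sequence, so the split of reads between them is uncertain, and the same holds for the Cyp2c, Cyp2d and Cyp3a genes. Of 17 female-biased genes 11 were tested (36.4% called, 7.89% of all genes). Cyp3a44 (1.64), Cyp3a41a (1.89) and Cyp3a16 (1.85) rose, and Cyp2b9 fell. Mup1, Cyp3a41a and Cyp3a16 were named after their values were seen, and their calls were lost in 4, 7 and 4 of 10 fits without a single liver. Mup7 lost its call without GFP replicate 1 or 4, without a filter and with the replicate block. Lower male-biased members numbered 2 without GFP replicate 1 and 7 without GFP replicate 5, with the list's median between -0.77 and -0.26 (without shLUC replicate 1). Higher female-biased members numbered 1 without shLUC replicate 1.

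Among 26 genes of xenobiotic metabolism, 9 rose and 5 fell (53.8% called, 7.89% of all genes). The count of lower members was 2 without shLUC replicate 1 and moved by over 1.5 times in 5 of 10 such fits. Cyp3a11, the main drug-oxidising Cyp3a of mouse liver, was at 907, 878, 765, 884 and 766 CPM with shLUC and 2345, 2026, 1628, 2396 and 1347 CPM with GFP (log2 fold change 1.21 ± 0.15 SE, adjusted p 0.00127 by edgeR). Cyp2c37, an arachidonic acid oxidase, went the other way (log2 fold change -2.07 ± 0.29 SE, adjusted p 0.00348 by edgeR). Of 19 acute phase genes, 4 rose and 2 fell (31.6% called, 7.89% of all genes). Hpx, which encodes the heme carrier hemopexin, was at 2990.0, 2259, 2483, 2472 and 2339 CPM with shLUC and 4394, 4408, 3959, 3868 and 3642 CPM with GFP (log2 fold change 0.69 ± 0.11 SE, adjusted p 0.00350 by edgeR), and Saa3 rose with a log2 fold change of 1.71 ± 0.23. The other members called, named after their values were seen, were Steap4 (0.69), Itih3 (0.46), Orm1 (-0.64) and Orm3 (-1.98). Itih3 lost its call without shLUC replicate 2 or 3 or GFP replicate 1 or 4, and Orm1 without shLUC replicate 3 or GFP replicate 2 or 4. Steap4, Itih3 and Orm1 all lost theirs in a single fit of all 20 livers. Higher acute phase members numbered 7 without shLUC replicate 1, and lower ones 1 without shLUC replicate 3. None of 13 heat shock and cold response genes was called by edgeR (2 had an unadjusted p under 0.05, and DESeq2 called 1, limma-voom 0).

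Of 14 tested immediate early genes, which respond within minutes to stimuli, Egr1, Btg2, Fosl2 and Atf3 rose (28.6% called, 7.89% of all genes). Egr1 was at 4.11, 3.75, 3.64, 2.64 and 3.13 CPM with shLUC and 23.9, 106, 30.1, 10.4 and 11.2 CPM with GFP. GFP liver 2 was far above the others, and all 5 were above the shLUC range (log2 fold change 3.40 ± 0.65 SE, adjusted p 0.0144 by edgeR). Btg2, an antiproliferative gene, was at 5.79, 4.26, 5.12, 5.62 and 5.68 CPM with shLUC and 24.3, 24.6, 14.7, 16.05 and 11.7 CPM with GFP (log2 fold change 1.79 ± 0.20 SE, adjusted p 0.00104 by edgeR). Of 22 tested genes of the unfolded protein and integrated stress responses, only Asns, the asparagine synthetase, and Atf3 were called, both higher. This called share, 9.09%, was near the 7.89% over all genes, and 12 of the 22 were on the lower side (median -0.09). Asns was at 0.246, 1.03, 0.450, 0.785 and 0.419 CPM with shLUC and 3.603, 9.85, 3.998, 2.11 and 3.64 CPM with GFP, its highest value in GFP liver 2 (log2 fold change 2.99 ± 0.46 SE, adjusted p 0.00416 by edgeR). Atf3 had a log2 fold change of 2.25, and its call was lost in 7 of 10 fits without a single liver. Higher stress response members numbered 1 without shLUC replicate 1 and 4 without GFP replicate 5. Of 19 clock genes, 1 rose and 1 fell (10.5% called, near the 7.89% of all genes). The riser was Noct, a rhythmic deadenylase relative (log2 fold change 2.28 ± 0.35 SE, adjusted p 0.00480 by edgeR). Of 9 tested small RNA genes, Rn7sk (2.82) and Rpph1 (1.96) rose (22.2% called, 7.89% of all genes). The call of Rpph1 was lost without shLUC replicate 1 or 4 or GFP replicate 2, and both calls without a filter or with the replicate block. Of 15 mitochondrially encoded genes, 5 fell (33.3% called, 7.89% of all genes, median -0.43). Without GFP replicate 4 the number was 0, and without GFP replicate 5 it was 7. Among the 5, mt-Cytb, a subunit of complex III, had -0.56, lost without GFP replicate 4, and mt-Nd4 -0.54, lost in 6 such fits.

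With genes averaging under 2 CPM set aside, the 8 largest called rises were Gpnmb, Mmp12, Ckap2, Cenpf, Cdc20, Hmmr, Egr1 and Cib3, with log2 fold changes of 4.85 down to 3.33. The calls of Mmp12, Ckap2, Cenpf, Cdc20 and Hmmr were lost with limma-voom and without a filter on low counts. Cib3, a calcium and integrin binding protein, was at 1.44, 0.513, 0.450, 1.19 and 0.463 CPM with shLUC and 13.9, 13.8, 3.93, 4.296 and 4.24 CPM with GFP. Its GFP mean was 9.89 times the shLUC mean (log2 fold change 3.33 ± 0.53 SE, adjusted p 0.00589 by edgeR). The 8 largest falls were Cyp2b9, Pnpla3, Nat8f7, Lrtm1, Mup7, Chrna4, Gna14 and Thrsp, from -4.02 to -2.81. Cyp2b9, a cytochrome P450, was at 3.404, 8.24, 32.5, 13.9 and 28.2 CPM with shLUC and 1.78, 0.103, 1.94, 1.27 and 0.246 CPM with GFP. The shLUC livers spread widely and none reached down to a GFP liver (log2 fold change -4.02 ± 0.77 SE, adjusted p 0.0139 by edgeR), and the call was lost with the replicate block and in a single fit of all 20 livers. Gna14, a G protein subunit, was at 7.58, 4.81, 2.96, 2.7002 and 4.05 CPM with shLUC and 0.569, 0.595, 0.412, 0.610 and 0.465 CPM with GFP. With Nat8f7 (-3.81) it had the smallest adjusted p of the genes named here (log2 fold change -3.04 ± 0.29 SE, adjusted p 5.41e-04 by edgeR). Chrna4 (-3.08), a nicotinic receptor subunit, lost its call without GFP replicate 1, without a filter and with the replicate block.

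Set beside the livers with altered Pklr, on a scale of all 20 libraries, the control groups lay as follows. The comparisons of each experiment share these controls, so the levels are given side by side only. Fasn was at 1418 ± 668 with shLUC, 417 ± 151 with shPKLR, 399 ± 116 with GFP and 922 ± 219 with PKLR CPM (mean ± SD, n = 5 each). Pnpla3 was at 14.95 ± 12.2 with shLUC, 2.54 ± 2.07 with shPKLR, 1.01 ± 0.378 with GFP and 6.72 ± 2.47 with PKLR CPM. In both genes the mean was lowest with GFP, followed by shPKLR, PKLR and shLUC, and the GFP and shPKLR means of Fasn differed by less than either SD. Cidec was at 5.499 ± 3.197 with shLUC, 8.49 ± 7.21 with shPKLR, 39.9 ± 10.6 with GFP and 14.2 ± 15.9 with PKLR CPM. Igfbp1 was at 16.4 ± 6.01 with shLUC, 17.8 ± 11.4 with shPKLR, 64.3 ± 14.8 with GFP and 15.97 ± 3.54 with PKLR CPM. In these genes, and in Col1a1 (7.15 ± 1.78 with shLUC, 10.2 ± 4.28 with shPKLR, 29.5 ± 15.6 with GFP and 12.3 ± 7.23 with PKLR CPM), the GFP group had the highest mean of the 4. Pck1 was at 849.9 ± 186 with shLUC, 1449.6 ± 396 with shPKLR, 2139 ± 483 with GFP and 1195 ± 552 with PKLR CPM, GFP again highest and shLUC lowest.

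Group scores on the same scale, as mean log2 CPM less the shLUC mean, were as follows for 4 groups. The lipogenesis score averaged -1.11 with GFP, -1.24 with shPKLR and -0.30 with PKLR. The cholesterol score averaged -0.92, -0.96 and -0.14. For the matrix score the means were 0.71 with GFP, 0.08 with shPKLR and 0.06 with PKLR, and for the cell cycle score 1.55, -0.03 and 0.16. The GFP group thus had the highest mean of the matrix and cell cycle scores, while in the lipogenesis and cholesterol scores its mean was close to that of shPKLR. Single livers overlapped. PKLR liver 1 had a matrix score of 0.45, above GFP livers 3 (0.17) and 5 (0.36). Its cell cycle score of 0.82 was above that of GFP liver 5 (0.31). None of these differences between groups was tested.

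**Figure D4:**
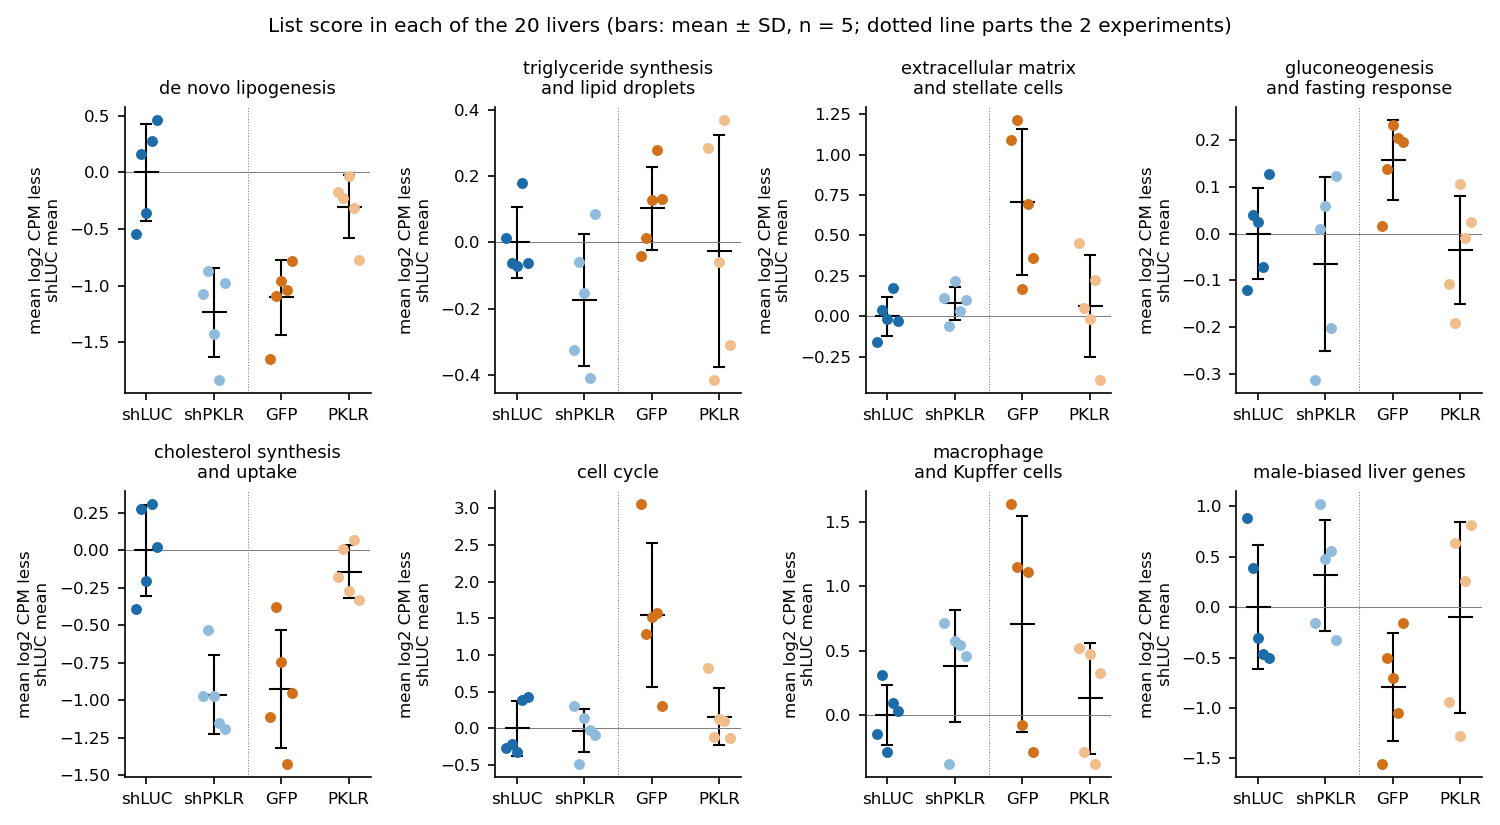
Score of 8 gene groups in each of the 20 livers: mean log2 CPM of the members less the mean of the shLUC livers, by vector group, with bars of mean ± SD (n = 5) and a dotted line between the 2 experiments. The GFP and shPKLR groups are lowest on average for lipogenesis and cholesterol synthesis, and the GFP group is highest on average for matrix, cell cycle and macrophage genes.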

How the data were processed

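RNA was measured by total RNA sequencing with a stranded kit, per the labels' protocols, in 20 mouse livers, of which 10 were compared. The authors deposited whole read counts per gene in 1 table per experiment, and reads were aligned with HISAT2 to GRCm38 (mm10), per the submitters' processing notes, which also name DESeq2. Which program counted the reads, on which annotation and with which strand setting, is not given in the sources used here, so antisense partners and near-identical paralogs (Mup, Cyp2c, Cyp2d, Cyp3a and Acot genes, 7SK copies) are uncertain.

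The tables hold 26286 (overexpression) and 27052 (knockdown) genes, and the 25238 in both were kept. Gene names and coordinates came from GENCODE (GRCm38), which named 25111 of them. Counts of the 10 control libraries, 31759565 to 45413803 each, passed edgeR 4.0.16 (R 4.3.3): filterByExpr (15726 genes kept), TMM scaling and the robust quasi-likelihood test. P-values were adjusted by Benjamini-Hochberg over all genes tested, with calls at 0.05. The SE is the absolute log2 fold change divided by the square root of F. Levels beside the Pklr groups used a separate scaling of 20 libraries. Scores are means of log2 CPM with a prior count of 2. The procedure was tested on simulated data for this comparison (15535 genes), where calls recovered 77.8% of 99 genes altered 2-fold and 93.9% of 98 altered 4-fold. Counts were drawn independently for each gene, so shifts shared by the genes of a liver were not simulated. Replicate pairs differed by more than sampling noise (chi-square per degree of freedom 26.8 to 181).

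The members and gene lists were chosen with earlier results of these data known. Named genes were Pklr; a panel of lipid, matrix and glucose genes; up to 10 called members of each main list by smallest p; the 8 largest rises and 8 largest falls averaging 2 CPM or more; and the 2 called members with the smallest p of each other list with at least 2. Genes named after their values were seen are marked, and the genes below the filter that are named (Mogat2, Timp1, Adipoq, Plin1, Cpa1) were chosen so too. Some genes that the rule names are not reported here. Alternatives were other size factors, 2 other filters, DESeq2 1.42.0, limma-voom (limma 3.58.1), a replicate block, removal of mitochondrial and ribosomal RNA genes, a fit of all 20 libraries, a union of the tables, offsets for GC content and length, and each library left out.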

Additional observations from a re-analysis of the deposited data

Results flagged for a closer look

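In each of 332 sets of 5 livers (a gene or score in 1 control group), the highest and lowest liver was compared with its nearest neighbour by Dixon's ratio. In 21 sets a liver lay beyond the 95% critical value of 0.71, where chance alone flags about 1 in 20 sets. The ranges in brackets are those of the other 4 livers of the group. GFP replicate 1 stood apart in Slc37a4 at 42.8 CPM (others 79.5 to 92.3), Acot1 at 106 CPM (others 32.7 to 40.6), Ckap2 at 21.4 CPM (others 0.629 to 4.28), Cenpf at 13.2 CPM (others 0.437 to 2.799), Cdc20 at 26.95 CPM (others 1.31 to 6.09), Hmmr at 12.3 CPM (others 0.766 to 2.92) and Cyp3a41a at 33.1 CPM (others 5.22 to 10.5). Among these, Ckap2, Cenpf, Cdc20 and Hmmr act in cell division.

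Other GFP livers stood apart in Asns at 9.85 CPM in GFP replicate 2 (others 2.11 to 3.998), Egr1 at 106 CPM in GFP replicate 2 (others 10.4 to 30.1), Cidea at 1.53 CPM in GFP replicate 5 (others 0.0474 to 0.443) and Ighm at 13.998 CPM in GFP replicate 5 (others 7.37 to 9.15). Among the shLUC livers, those standing apart were Cidec at 11.2 CPM in shLUC replicate 4 (others 3.398 to 5.12), Stab2 at 25.2 CPM in shLUC replicate 1 (others 33.5 to 36.2), Saa3 at 2.91 CPM in shLUC replicate 1 (others 2.25 to 2.42), Bmp2 at 6.56 CPM in shLUC replicate 1 (others 10.6 to 12.2), Cyp27a1 at 367 CPM in shLUC replicate 4 (others 409.8 to 426) and Cyp3a41a at 4.08 CPM in shLUC replicate 4 (others 3.17 to 3.33). Of the scores, in mean log2 CPM less the shLUC mean, the interferon response score was -0.23 in shLUC replicate 3, the endothelial cells score was -0.51 in shLUC replicate 1, the periportal hepatocytes score was -0.32 in shLUC replicate 4 and the clock score was -0.96 in GFP replicate 1.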

How the results depend on the processing

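The direction of Pklr and of the lipogenesis, matrix and cholesterol medians held under all 20 alternatives. Higher and lower calls (674 and 567) became 1076 and 948 with DESeq2, 502 and 392 with the replicate block, and 585 and 840 with offsets for GC content and length, so that higher calls made up 41.1% instead of 54.3%. Without a filter, 0 matrix members were lower (main 1), 3 gluconeogenic members higher (6) and 39 members of the other lists higher (62). With DESeq2, 5 droplet members (2), 4 matrix members (1), 4 gluconeogenic members (2) and 83 members of the other lists (51) were lower. Lower droplet members numbered 1 with limma-voom. With all 20 libraries in a single fit, droplet members numbered 3 higher (8) and 1 lower, and matrix members 0 lower. With the offsets, 3 matrix members were lower. The cause was not tested. The stricter filter left no neutrophil or skeletal muscle marker, so it gave no value for these lists, and removal of mitochondrial genes gave none for theirs.

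Leaving out 1 library gave 363 to 1006 higher and 302 to 689 lower calls. Over these fits lipogenesis had 0 higher and 10 to 13 lower members (median -1.06 to -0.77), droplets 7 to 9 and 1 to 5 (-0.02 to 0.02), matrix 12 to 27 and 0 to 2 (0.62 to 0.85), gluconeogenesis 2 to 6 and 2 to 3 (-0.01 to 0.10), and the other lists together 34 to 84 and 28 to 58. Pklr was at -2.11 to -1.87. Uncalled genes near 0 changed sign: G0s2 without shLUC replicate 2 (-0.022), G6pc (-0.16 to 0.12) without shLUC replicate 2 (0.12), GFP replicate 2 (0.0048) or GFP replicate 3 (0.0028), and Fbp1 (-0.056 to 0.032) without shLUC replicate 5 (0.032) or GFP replicate 4 (0.0045).

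Replicate numbers occur in both groups, and the counts gave no clear sign that they pair the livers. Same-numbered livers correlated at -0.10 to 0.15, and 2 of 5 livers correlated best with their own number. With the replicate block, lower droplet members numbered 1 and lower matrix members 2, and 33 of 120 named calls were lost. Named calls lost numbered 26 without a filter, 21 in a single fit of all 20 livers and 18 with limma-voom. Not every such loss is marked beside its gene above. With 5 livers a group, differences can go undetected, also those of 2-fold and more. In the simulation 77.8% of genes altered 2-fold and 93.9% of those altered 4-fold were called. It drew each gene independently, without shifts shared by the genes of a liver, so these rates need not hold for the data.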
